A study of Mus musculus with 18 samples.

Results

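Probes that were first marked as detected after postnatal day 10 (P10) were followed in hairless skin of the mouse fore footpad. They are 77 of the 42006 transcript probes of the array. A probe was taken when its skin signal was well above background on 0 of the 6 arrays of P10 and on at least 5 of the 6 arrays of P31, with both genotypes counted together. The mark "well above background" is set by the scanner software for each spot, and these marks at P10 and P31 chose the members, so the difference between those ages is a description here and is not tested.

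Skin came from FoxA1 knockout mice and their wild-type littermates of the C57BL/6 strain. It was taken at P10, P14 and P31, and every one of the 6 groups has 3 arrays. The labels do not say how the gene was deleted or in which cells, give the sex as mixed, and speak of embryos for postnatal ages. Skin RNA carried Cy3 on every array and was set against a common reference in Cy5, which mixed the RNA of 11 mouse cell lines with that of embryonic stem cells, and dyes were not swapped. Whole footpad skin was sampled, so fewer cells of a type and less RNA per cell cannot be told apart.

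The footpad is where a mouse carries its eccrine sweat glands. These glands grow down from the epidermis as buds, coil in the deep dermis and acquire a secretory lumen surrounded by myoepithelial cells around and after birth, while the thick epidermis of the pad, its nerves, vessels and fat also mature. FoxA1 is a forkhead transcription factor that can bind closed chromatin, and the study's title links it to sweat secretion through Best2, an anion channel, and Nkcc1, a sodium, potassium and chloride cotransporter.

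No gene name stands beside any probe in the files (0 of 42006 probes), and no member shared a run of 40 bases with any of the 32851 RefSeq promoter windows (GRCm38.p6) that were searched. Members are therefore named by probe, and the markers of sweat gland, epidermis, muscle, blood or other tissues were not analysed here. The tissue label was for the same reason not checked. Each probe is 60 bases long; bases 16 to 45 of its sequence, counted from the 5′ end, are given for the members that the results turn on, so that their transcripts can be looked up. Where the probe lies in the genome was not determined. The first 3 had the clearest gain with age:
Z00026847-1: ttaaaccaaattaatattccttgattaaat
Z00023856-1: taaacctgagcattttctgaatgaaaatgg
Z00068916-1: gaggacttgtgtggtcttgctaaaccagag
The next 2 are, after Z00023856-1, the member that was most above and the member that was most below the wild type in the P31 knockout:
Z00057299-1: aggccaagcgcatcgtgaaggagatgctcc
Z00065611-1: catgtggtgagaactgtgtacggtgatttt
The last 2 are the member on all 6 P14 arrays, which was also the furthest below the wild type in the P14 knockout, and the member furthest above it, and capitals mark bases that a second probe of the array also holds:
Z00030145-1: agaagctccagctgctgtaatgtaaacaaa
Z00042912-1: ATAAAAGACACTATggccaaaaacccctga

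Ages did not share slides evenly, and this bears on every value below. The 6 arrays of P10 filled slides 1 and 2, which held no other age. Slide 3 held all P14 knockout arrays and 1 P14 wild-type array, slide 4 the other two P14 wild-type arrays with P31 knockout replicates 1 and 2, and slide 5 the remaining P31 arrays. Slide and age cannot be told apart between P10 and the later ages. Between 53.3% and 63.7% of all probes were well above background in Cy3, and no Cy3 spot was saturated. P31 knockout replicates 1 and 2 and P10 knockout replicate 1 had the most such probes (26768, 26223 and 26341, against 22399 to 25063 on the other 15 arrays). With 3 arrays in a group the precision is low; values after ± give the SD within a group of 3. The series text describes the 3 arrays of a group as 3 animals, so p-values measure the spread between animals.

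The members were mostly probes only just above the detection mark at P31. By P31 only 18 were well above background on all 6 arrays, and 59 were on 5 of 6. Knockout replicate 3 was the missing array for 27 of these 59 and wild-type replicate 1 for 18, whereas wild-type replicates 2 and 3 were missing for 6 each and knockout replicates 1 and 2 for 1 each. Of the 77 members, 76 were thus detected on each of knockout replicates 1 and 2, 50 on knockout replicate 3, and 59, 71 and 71 on the wild-type arrays. The arrays that detected most members were also those that detected most probes overall; its part in the counts was not tested.

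Many probes missed the rule by a single array. On 1 of 6 P10 arrays and at least 5 of 6 P31 arrays were 84 probes. On 0 of 6 P10 arrays and 4 of 6 P31 arrays were 79. Of all probes 32.7% (13721) were on 0 of 6 P10 arrays, and the rule chose 0.561% of these. The reverse rule, 0 of 6 arrays at P31, chose 149 (0.637%) of the 23396 probes on at least 5 of 6 P10 arrays. Without P10 knockout replicate 1 a looser rule gave 123 members, without P31 knockout replicate 3 it gave 129, and without P31 wild-type replicate 1 it gave 121. Each of these runs asked for 1 array fewer at the age concerned. It therefore kept all 77 members and could only add to them. A demand for all 6 P31 arrays left 18.

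The values beside the threshold show how close many probes lay to it. Levels here are log2 Cy3 brightness after loess and Aquantile normalization. Z00019810-1, inside on 6 of 6 P31 arrays, read 6.09 to 6.27 at P10 and 6.58 to 7.18 at P31. Z00006213-1, inside on 5 of 6, read 6.32 to 6.58 at P10 and 6.45 to 6.83 at P31, so that its ages overlapped. Outside the rule, Z00003132-1 was on 4 of 6 P31 arrays with 6.45 to 7.84. Another probe outside it, Z00022475-1, was on 1 of 6 P10 arrays, yet went from 6.32 to 6.72 at P10 through 6.76 to 7.64 at P14 to 7.81 to 10.42 at P31.

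For each member a lower bound of the P31 level over P10 was computed, since a probe that is not above background has no level of its own. From the mean log2 Cy3 level of the 6 P31 arrays a mean log2 level over the P10 arrays was subtracted. Each P10 array entered with the dimmest level that the scanner still marked as detected, or with the probe's own level if higher. The difference is given as a fold. The median bound over the 77 members was 1.24-fold. It exceeded 2-fold for 3 members (3.76, 3.39 and 2.70-fold), was at most 1.81-fold for the others, and for Z00064081-1 it did not reach 1, so no fold is given. For 26 members it was under 1.2-fold. On wild-type arrays alone the bound did not reach 1 for several members, while on knockout arrays alone it exceeded 1 for all. Members at P31 lay a median of 0.51 log2 units above the dimmest detected level, against 3.30 for the 22898 probes that were on at least 5 of 6 P31 arrays. The normexp offset of 50 used before taking logs draws low values together, and with processed Cy3 signals scaled to the 75th percentile the median bound was 1.54-fold. The series design counts a gene only with a mean log intensity above 2.0; with log10 assumed, 0 of 77 members reached it over all 18 arrays (highest 1.97), 32 did so over the P31 arrays alone, and 53.2% of all probes did so over all arrays.

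Z00026847-1 had the largest bound, at least 3.76-fold. Its Cy3 level was 6.01, 6.05 and 5.94 on the P10 knockout arrays and 5.93, 6.09 and 6.34 on the wild-type arrays. At P14 it read 6.14, 6.07 and 6.05 in the knockout and 6.28 to 6.48 in the wild type, without being well above background anywhere. At P31 the knockout arrays read 8.21, 8.34 and 7.99 and the wild-type arrays 8.48, 7.81 and 9.51. All 6 arrays of P31 thus stood more than a log2 unit above every younger array, and wild-type replicate 3 was the brightest. The transcript was not well above background in the Cy5 reference on any array. The bound was 3.41-fold within the knockout and 4.13-fold within the wild type.

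Z00068916-1 behaved in the same way with less spread. Its P10 levels ran from 5.87 to 6.10 and its P14 levels from 6.10 to 6.71, with 0 of 6 arrays well above background at either age. At P31 it read 7.81, 7.80 and 7.88 in the knockout and 8.10, 8.02 and 7.88 in the wild type. The 6 values of P31 lay within a narrow band, and those of the genotypes met at 7.88. It was at least 2.70-fold higher at P31 than at P10, with bounds of 2.68-fold in the knockout and 2.72-fold in the wild type, and it was absent from the reference (0 of 18 arrays well above background in Cy5).

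Z00023856-1 was higher at P31 by at least 3.39-fold. It stayed between 5.99 and 6.27 at P10. At P14 it read 6.37, 6.75 and 6.54 in the knockout and 6.50, 6.72 and 6.29 in the wild type, with 1 array of each genotype well above background. At P31 the knockout arrays read 8.93, 8.74 and 8.27 and the wild-type arrays 7.84, 8.06 and 7.60, so the knockout lay above the wild type in Cy3 without overlap. Its bound was 4.72-fold in the knockout and 2.43-fold in the wild type.

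The other seven of the 10 members with the largest bounds lay between 1.55 and 1.81-fold. Z00009061-1 and Z00022428-1, at 1.81 and 1.78-fold, were on 0 of 6 P14 arrays, as was Z00053215-1 at 1.56-fold. At P31 Z00009061-1 read 7.75 and 7.31 on knockout replicates 1 and 2 but 6.44 on replicate 3, which was within its P10 range of 6.20 to 6.57; the wild-type arrays read 7.03, 7.88 and 7.65. That spot of replicate 3 was dim in the reference as well, at a Cy5 level of 6.75 against 8.13 to 8.74 on the other P31 arrays, and its log2 ratio of -0.31 was the highest of the 18 arrays (-2.43 to -1.28 at P10). Z00022428-1 read 6.79, 8.09 and 8.01 in the knockout and 6.53, 7.51 and 6.96 in the wild type, where replicate 1 was not detected. On the brightest of these spots, knockout replicate 2, the reference was bright too (Cy5 7.43 against 5.94 to 6.33 on the other 17 arrays), and the log2 ratio was 0.65. In Cy3 the dimmest P31 array of each was thus close to the P10 level. For Z00053215-1 the P31 arrays, at 6.91 to 7.41, all lay above the P10 arrays, at 6.19 to 6.58. Z00042912-1, Z00060760-1 and Z00026315-1, at 1.61, 1.58 and 1.55-fold, were on all 6 P31 arrays and on 4, 2 and 4 of the P14 arrays. Z00076448-1, at 1.55-fold, owed its bound to P31 wild-type replicates 1 and 2, which read 7.79 and 8.71 against 6.34 to 6.71 on the other four P31 arrays. The same 2 spots were also bright in the Cy5 reference, at 7.48 and 8.09 against 6.05 to 6.41 on the other 16 arrays, and the log2 ratio over the reference on them was 0.31 and 0.61.

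The arrays of P14 played no part in choosing the members. The rule fixed the marks at P10 and at P31, so values at P14 between those ages can come from the choice itself. Of the 77 members 30 were on none of the 6 P14 arrays, 22 on 1, 10 on 2, 5 on 3, 5 on 4, 4 on 5 and 1 on all 6. Knockout arrays of P14 detected 15, 22 and 16 members and wild-type arrays 8, 16 and 26, so the genotypes overlapped. Members were detected by more knockout than wild-type arrays in 21 cases and by fewer in 21. On the 4 P14 arrays of slide 3 the counts were 15, 22 and 16 in the knockout and 8 in the wild type. Of the probes on 0 of 6 P10 arrays, the P14 knockout arrays detected 2.07%, 2.19% and 1.76%. The P14 wild-type arrays detected 2.00%, 1.77% and 3.24% of them. Wild-type replicate 1, on slide 3, detected the fewest probes of all 18 arrays (22399). Its dimmest detected Cy3 level, 6.73, was the highest. What this did to its count was not tested. Among the probes on 0 of 6 P10 arrays, 0.0437% (6 of 13721) were on at least 5 P14 arrays, and 5 of those 6 were members. On none of the 6 P14 arrays were 12210 of the 13721.

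Median levels at P14 lay between those of P10 and P31, which the rule had set apart. The median Cy3 level of the members ran from 6.34 to 6.42 over the P10 arrays, from 6.54 to 6.55 over the P14 arrays and from 6.76 to 6.85 over the P31 arrays, without overlap of the ages. The mean of the P14 arrays exceeded that of the P10 arrays for 74 of 77 members, with a median difference of 0.18, and for 61.7% of the probes on 0 of 6 P10 arrays, with a median of 0.02. All 6 P14 arrays lay above all 6 P10 arrays for 17 members, against 1.34% of the probes on 0 of 6 P10 arrays. The median difference was 0.18 in each genotype taken alone. The size depended on the scale: it was 0.15 after quantile normalization of Cy3 and 0.70 for processed Cy3 signals scaled to the 75th percentile, where the probes on 0 of 6 P10 arrays had 0.19. The rule chose low readings at P10 and detection at P31, and P14 lay on other slides than P10, so these differences carry no test. Most members were well above background on no P14 array or on 1, so the readings compared lie near the background. From P14 to P31 the median difference was 0.25, likewise without a test.

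The reference channel was read on the same spots, with the same RNA pool hybridised each time. Its detection marks still differed between arrays. In Cy5, 17 to 29 members were well above background on the P10 arrays, 18 to 30 on the P14 arrays and 22 to 43 on the P31 arrays. Of all probes, 59.0% to 66.8% were so at P10, 58.3% to 65.5% at P14 and 59.4% to 71.7% at P31. These ranges overlapped, and age was tied to slide. The dimmest detected Cy3 level was 6.37 to 6.67 on the P10 arrays and 6.19 to 6.41 on the P31 arrays. What this did to the choice of members was not tested. The median Cy5 level of the members differed by 0.03 between P31 and P10 and by 0.02 between P14 and P10. The log2 ratio of skin over reference was higher at P31 than at P10 by a median of 0.44. The Cy3 level after loess and Aquantile gave 0.45, but it is computed from both channels, so these values are not independent. Processed Cy3 signals scaled to the 75th percentile gave 1.7. Members were often dim in the reference: 15 of 77 (19.5%) were well above background in Cy5 on all 18 arrays and 27 (35.1%) on none, against 55.4% and 21.3% of all probes. Of the probes on 0 of 6 P10 arrays 7.32% were in Cy5 on all arrays and 60.6% on none.

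Z00030145-1 was the only member on all 6 P14 arrays. Its Cy3 level was 6.16 to 6.80 at P10. At P14 it read 6.66, 6.75 and 6.92 in the knockout and 7.46, 6.97 and 7.19 in the wild type. At P31 it read 6.87, 7.04 and 6.61 and 6.99, 6.86 and 7.41, so it had no further gain after P14 in these values. The 4 members on 5 of 6 P14 arrays were Z00065611-1, Z00057299-1, Z00028042-1 and Z00063449-1. The members on 0 of 6 P14 arrays with the largest bounds were Z00026847-1, Z00068916-1, Z00009061-1, Z00022428-1 and Z00053215-1.

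Probes were also chosen on 1 genotype and read in the other, with the same P10 and P31 marks that the rule used. On wild-type arrays alone 120 probes were on 0 of 3 arrays at P10 and 3 of 3 at P31. In the knockout 50 of these were also on 0 of 3 P10 arrays, and 18 of the 50 (36.0%) were on all 3 P31 arrays, against 0.798% of the 14658 probes on 0 of 3 P10 knockout arrays. The choice on knockout arrays gave 117 probes, of which 84 were on 0 of 3 P10 wild-type arrays, and 18 of the 84 (21.4%) were on 3 of 3 at P31 against 0.765% of 15696. By definition these 18 are the same probes in both choices, the members on all 6 P31 arrays. On 0 of 3 P31 arrays of the other genotype were 1 of the 50 and 14 of the 84. The probes behind the shares of 0.798% and 0.765% were not matched to the chosen ones in brightness, so the shares are a description and no test. The genotypes shared slides 2 and 5, and age stays tied to slide in both choices.

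The comparison of genotypes asked whether the members differed between knockout and wild type at P14 and at P31. None of the 77 members passed at P14 or at P31 (limma, Benjamini-Hochberg adjusted p under 0.05 over the 27089 probes tested and a fold over 1.5), where 0.0258% and 0.0148% of all probes passed. By direction 0.00369% of probes were higher and 0.0221% lower in the knockout at P14, and all that passed at P31 were lower. At an unadjusted p under 0.05 the members numbered 3 at P14 and 10 at P31, beside 9.41% and 7.80% of all probes, and an ordinary linear model without moderated variance called 0 members at either age as well. The unadjusted count at P14 moved with the scaling, to 12 members with a normexp offset of 0 (9.64% of all probes), 11 with the scanner's own log ratio (10.8%) and 17 with Cy3 alone (8.27%). At P31 it was 5 with the scanner's own log ratio (7.14%) and 5 with Cy3 alone (5.31%). All members were tested, since each was detected on at least 5 arrays, and at P14 only 8 had all 3 arrays of a genotype well above background. The rule needs 5 of 6 P31 arrays, so a transcript seen in only 1 genotype could not become a member. At P10, where no member was detected, no comparison was made.

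Differences between genotypes were small and ran both ways. At P31 the log2 ratio was higher in the knockout for 41 of 77 members (56.1% of all probes), with a median difference of 0.04 against 0.03 for all probes tested and a range of -0.45 to 0.66. At P14 it was higher for 30 of 77 (49.7% of all probes), with a median of -0.04 against 0.00 and a range of -0.46 to 0.38. The median standard error was 0.128 for the members. All 3 knockout arrays lay above all wild-type arrays for 7 members at P31 (3.74% of all probes) and below for 4 (3.03%), or 11 either way (6.77%). At P14 they lay above for 3 (11.7%) and below for 13 (10.5%), or 16 either way (22.2%). The change of the genotype difference between P14 and P31 passed for 0 members and 0% of the probes, and at an unadjusted p under 0.05 for 9 members and 7.02% of the probes.

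Of all members, Z00023856-1 had the largest fitted difference at P31. It did not pass, and its sign turned in some settings. Its log2 ratio over the reference was 2.73, 2.79 and 1.71 in the knockout and 1.61, 1.97 and 1.68 in the wild type. Knockout replicate 3 lay within the wild-type range and the other two knockout arrays above it. The group values were 2.41 ± 0.61 and 1.75 ± 0.19, a difference of 0.66 (SE 0.205, 95% interval 0.23 to 1.09, limma adjusted p = 0.523). Without knockout replicate 3 the difference was 1.01 and passed (limma adjusted p = 0.00498), and on slide 5, which holds that array and the 3 wild-type arrays, it was -0.04. The other two knockout arrays of P31 were on slide 4. The sign also turned with the scanner's own log ratio and in the authors' deposited table, to -0.27 in each.

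Z00057299-1 read 1.54, 0.70 and 0.93 in the P31 knockout and 0.57, 0.38 and 0.56 in the wild type, without overlap. The difference was 0.55 (SE 0.165, 95% interval 0.20 to 0.90, limma adjusted p = 0.523), and on slide 5 it was 0.42. It was -0.08 with the scanner's own log ratio and 1.26 with Cy3 alone. At P14 its difference was -0.14 (SE 0.165, limma adjusted p = 0.735), and the test of the change from P14 to P31 gave 0.69 (SE 0.233, limma adjusted p = 0.510). Z00065611-1 went the other way, with ratios of -0.41, -0.55 and -0.67 in the P31 knockout and -0.02, -0.28 and 0.03 in the wild type. Its groups did not overlap at P31, with a difference of -0.45 (SE 0.140, 95% interval -0.75 to -0.16, limma adjusted p = 0.523) or -0.58 on slide 5, while at P14 the groups overlapped.

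Z00042912-1 was the member with the largest rise in the knockout at P14. Its ratios were 0.08, 0.18 and 0.17 there and -0.38, -0.15 and -0.19 in the wild type, and all 3 knockout arrays but only wild-type replicate 3 were well above background. The difference was 0.38 at P14 (SE 0.152, limma adjusted p = 0.524) and 0.46 at P31 (SE 0.152, limma adjusted p = 0.532), where the groups overlapped (0.34, 0.76 and 0.15 against -0.17, -0.24 and 0.31). On slide 5 alone the P31 difference was 0.19, and on slide 3 alone the P14 difference was 0.52. Without P31 wild-type replicate 3 it was 0.63 at P31 and passed (limma adjusted p = 0.0484), an array whose removal raised the calls over all probes to 268. The largest fall at P14 was that of Z00030145-1, with 0.49, 0.53 and 0.72 in the knockout and 1.30, 0.89 and 0.93 in the wild type. The groups did not overlap, and the difference of -0.46 (SE 0.168, limma adjusted p = 0.524) was -0.72 on slide 3. The lowest adjusted p at P14 was that of Z00030897-1, with a difference of -0.42 (SE 0.124, limma adjusted p = 0.511) and Cy3 levels of 6.84, 6.83 and 6.87 in the knockout against 7.30, 7.18 and 7.07 in the wild type; only 1 of these 6 spots was marked well above background.

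Of the 3 members with the largest bounds, Z00023856-1 is described above. For the other two the 95% interval of the genotype difference at P31 included 0. Z00026847-1 stood at 2.21 ± 0.45 in the knockout and 2.52 ± 0.94 in the wild type, a difference of -0.31 with a 95% interval of -0.97 to 0.34 (limma adjusted p = 0.838). Its sign turned, to 0.42 with the scanner's own log ratio and in the authors' deposited table and to 0.14 with a normexp offset of 0, while slide 5 alone gave -0.83. Z00068916-1 stood at 1.73 ± 0.20 and 1.89 ± 0.04, a difference of -0.15 with an interval of -0.42 to 0.11 (limma adjusted p = 0.802), which was 0.05 with a normexp offset of 0 and -0.39 on slide 5. These intervals do not show that the genotypes were equal.

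In sequence the members resembled the other probes in base composition. Their median GC content was 43.3% (quartiles 38.3% and 48.3%), equal to the 43.3% of all 42006 probes. The letters AATAAA, those of the polyadenylation signal, read on the printed strand, occurred in 9 members (11.7%), in 6.93% of all probes and in 5.99% of the probes on 0 of 6 P10 arrays; a match is a description of these 60 bases only. No member shared a run of 20 bases with another member. With probes outside the set, 7 members shared a run of 20 bases or more. Of these second probes 6 hold part of the member's sequence on the same strand, and the remaining probe holds it on the opposite strand.

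None of the second probes met the rule, although several were on more arrays or brighter at P31 than at P10. Capitals mark the bases shared within the printed stretch:
Z00041697-1: GACCTGGCACCGGGTCTAAActagaatttt
Z00073695-1: gTTAATTTTATGTTAAAGAAGGCACCCCTA
Z00070444-1: agaACTTAATTACAACATTGGTATCAACCC
Z00030897-1: atcctggtctctccagcatgttaCCTAGGA
Z00075312-1, which shares 35 bases with Z00041697-1, came nearest to it, with 0 of 6 arrays at P10, 0 of 6 at P14 and 4 of 6 at P31. Z00072949-1, which shares 44 bases with Z00073695-1, was on 4, 5 and 6 arrays at the 3 ages in turn. Its Cy3 level was 6.54 to 6.97 at P10 and 6.81 to 7.61 at P31. Z00033584-1, which shares 42 bases with Z00070444-1, was on all 6 arrays at every age, and its Cy3 level still rose from 6.95 to 7.15 at P10 through 7.20 to 7.64 at P14 to 7.40 to 7.99 at P31. The values of Z00070444-1 itself were 6.30 to 6.47, 6.51 to 6.83 and 6.66 to 6.97 at these ages.

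Z00027115-1 shares the last 22 bases of Z00030897-1 and was far brighter. It read 7.17 to 8.48 at P10, 8.94 to 11.23 at P14 and 8.43 to 10.81 at P31, and was on all 6 arrays at every age. Both it and Z00030897-1 were highest at P14 on wild-type replicate 1, with 11.23 and 7.30. The member itself read 6.26 to 6.52 at P10 and 6.85 to 7.30 at P31. Of the remaining second probes, those of Z00042912-1 (22 bases shared) and Z00059585-1 (43 bases shared) were on 0 of 6 arrays at every age, and that of Z00063793-1, which holds 32 of its bases on the opposite strand, was on all 6 at every age with levels of 12.14 to 12.92. Whether a member's signal includes RNA that the second probe also binds was not tested.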

How the data were processed

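RNA of footpad skin was measured on 18 two-colour Agilent arrays in 6 groups. Per the file headers, the deposited scanner files were made with Agilent Feature Extraction 9.5.1.1 and hold spot brightness, local background and processed signals as intensity, a log10 ratio of Cy5 over Cy3, and, as other values, detection marks for every spot. The authors also deposited a value table in log10 units (column medians 2.42 to 2.48); over 12921 probes above background in both channels it equalled the log10 ratio of skin over reference plus a constant per probe, within 2.0e-04, and how that constant was set is not given in the sources used here.

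Mean brightness and median background were corrected with normexp (offset 50) and loess-normalized within arrays in limma 3.58.1 under R 4.3.3, with control and outlier spots (1 to 13 per array) at weight 0. Spots of a probe were averaged (42034 spots, 42006 probes). The test took probes detected in Cy3 on at least 3 arrays (27117, less 28 with missing values), with 6 group means over 18 arrays (12 residual degrees of freedom), lmFit and eBayes, two-sided. Cy3 levels are after loess and Aquantile. The fit was tested on simulated data.

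Members and lists were chosen with earlier results of these data known. Named members are those with the 10 largest bounds, the 5 largest among those on 6 of 6 and 0 of 6 P14 arrays, the 3 largest genotype rises and falls at P14 (all 3 arrays of a genotype detected) and P31, and probes beside the threshold; those with a second probe were named after their values were seen, as were Z00064081-1, Z00063449-1 and Z00077356-1. Sequences were to be printed for probes matched to coding sequence; no such match could be made here, and 30 bases are given instead. Gene lists were not tested.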

Additional observations from a re-analysis of the deposited data

How the results depend on the processing

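The number of members, 77, moved most with the rule: 18 with 6 of 6 P31 arrays, 156 with at least 4, 161 with at most 1 of 6 P10 arrays, 120 on wild-type and 117 on knockout arrays alone, and 79 to 129 without single arrays. The runs without single arrays asked for 1 array fewer, so they could only add members. With a second, significance-based mark of the scanner it was 55, and all 77 members then counted as detected on at least 1 P14 array instead of 47 (37 to 46 without single P14 arrays). The median bound of 1.24-fold became 1.54-fold with scaled processed Cy3 and was 1.22 to 1.27-fold without single arrays. The median difference between P14 and P10 of 0.18 became 0.70 and 0.15 on other scales, chosen after seeing the data. The cause was not tested. No member passed a genotype comparison under the other settings run, which include the slide and the replicate block (0 at P14, 0 at P31); leaving out single arrays gave 0 to 0 at P14 and 0 to 1 at P31 and for the change between the ages (Z00077356-1, 0.62, limma adjusted p = 0.0313 without P31 wild-type replicate 3). Counts of 0 say little about stability. No pairing of the genotypes by replicate number was evident (correlations of deviations -0.457 to 0.383), which does not show that there was none. The replicate block left 0 members called. The limit of 2.0 on mean log10 signal left no member to test. Low signal over background limits all values: 59 of 77 members were not detected on 1 P31 array.

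The sign of the knockout minus wild-type difference turned for several named members, none of which passed in these settings, and the cause was not tested. With a normexp offset of 0 at P14 Z00053215-1 read 0.05, and at P31 Z00026847-1 read 0.14, Z00068916-1 read 0.05, Z00076448-1 read 0.22 and Z00025729-1 read 0.03. With the scanner software's log ratio at P14 Z00022428-1 read 0.24, Z00053215-1 read 0.43 and Z00025304-1 read 0.38, and at P31 Z00026847-1 read 0.42, Z00023856-1 read -0.27, Z00022428-1 read -0.10, Z00076448-1 read 0.78 and Z00057299-1 read -0.08. With scaled Cy3 alone at P14 Z00068916-1 read -0.36, Z00053215-1 read 0.40 and Z00028042-1 read 0.39, and at P31 Z00009061-1 read -0.73. With the authors' deposited table at P14 Z00053215-1 read 0.43 and Z00025304-1 read 0.38, and at P31 Z00026847-1 read 0.42, Z00023856-1 read -0.27 and Z00076448-1 read 0.78. With the slide as a fixed block at P14 Z00009061-1 read 0.51 and Z00025304-1 read 0.09, and at P31 Z00023856-1 read -0.04, Z00060760-1 read -0.26 and Z00025729-1 read 0.21. Without single arrays the P14 difference ran from -0.19 to 0.09 for Z00022428-1, -0.17 to 0.02 for Z00060760-1, -0.12 to 0.10 for Z00068916-1, -0.55 to 0.16 for Z00009061-1, -0.12 to 0.21 for Z00026315-1, -0.07 to 0.19 for Z00065611-1, -0.19 to 0.02 for Z00053215-1 and -0.16 to 0.09 for Z00025304-1. Without single arrays the P31 difference ran from -0.16 to 0.24 for Z00060760-1, -0.13 to 0.11 for Z00025729-1, -0.16 to 0.40 for Z00009061-1, -0.19 to 0.45 for Z00022428-1, -0.16 to 0.04 for Z00028042-1, -0.49 to 0.04 for Z00025304-1 and -0.72 to 0.20 for Z00026847-1.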
